A study of Homo sapiens with 10 samples.

Results

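Aminoacyl-tRNA synthetases are the enzymes that join each amino acid to its transfer RNA, and the genes examined here are those of the cytosolic and mitochondrial synthetases with 3 associated genes. They were chosen from a list of 38 gene symbols, of which 19 were represented by a named probe set on the arrays. The measured genes were 17 of 19 listed cytosolic synthetases, the paralogue TARS3 and AIMP1, which encodes a non-enzymatic scaffold of the multi-synthetase complex. FARSA, FARSB, AIMP2 and the 16 listed mitochondrial synthetases were not analysed here. The intended comparison of cytosolic with mitochondrial enzymes therefore could not be made, and other genes of mitochondrial translation are given in its place as separate values. The whole table held 14884 named genes.

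The arrays compared 5 samples of MCF10A cells knocked out for the H2A.X gene (H2A.X-KO) with 5 samples of parental MCF10A cells (WT). MCF10A is an immortal human breast epithelial line that does not form tumours, and H2A.X is a histone variant that is phosphorylated near DNA double-strand breaks. Cells of both groups grew for 48 h in DMEM/F12 with 5% horse serum, 20 ng/ml EGF, 500 ng/ml hydrocortisone, 100 ng/ml cholera toxin and 10 µg/ml insulin, with penicillin-streptomycin. The labels give the genotype alone: whether the H2A.X-KO samples were 1 clone or several, and whether the 5 samples of a group were separate cultures, is not stated, so the p-values reflect only how much these samples varied, which could be technical variation. The series title asks how H2A.X relates to epithelial-mesenchymal transition through Twist1 and Slug. The synthetases are not part of that question.

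Values are log2 signals, on which a difference of 1 is a 2-fold change. Array medians ran from 4.26 to 4.35 and correlations between arrays across genes from 0.991 to 0.996 within groups and from 0.975 to 0.979 between them. On the second principal component (7.53% of the variance) H2A.X-KO replicate 1 stood apart, at 20.19 against -9.47 to -2.52 in the other H2A.X-KO arrays. The knocked-out gene itself was not analysed here, so the groups rest on the labels. Of 5 measured basal epithelial markers of MCF10A (KRT5, KRT14, EGFR, SFN and TRIM29), 4 lay above the median of all gene means (5.49) in every array. Of 4 immune markers 2 did so, and of 4 fibroblast and 7 endothelial markers 0 did. The lists held 13 basal markers and 10 of each other kind. The mean signal of the 5 basal markers was 9.57 to 9.73 in H2A.X-KO arrays and 8.69 to 8.83 in WT arrays. The mean signal of 4 fibroblast markers was 4.53 to 4.76 in H2A.X-KO arrays and 4.07 to 4.34 in WT arrays, and that of 7 endothelial markers was 4.12 to 4.35 in H2A.X-KO arrays and 3.83 to 3.95 in WT arrays. The mean signal of 4 immune markers was 5.99 to 6.16 in H2A.X-KO arrays and 6.09 to 6.21 in WT arrays. Of the basal markers KRT14 rose by 2.59, KRT5 by 0.78, EGFR by 0.69 and SFN by 0.39, while TRIM29 did not pass. The fibroblast list had a median difference of 0.01, with a rise of 2.06 in DCN and a fall in DPT (-0.38), and the endothelial list had a median of 0.09, with a rise of 1.69 in KDR and 6 of 7 genes that did not pass. Of the immune markers CD14 fell by 0.76 and CD68 by 0.37, and CSF1R rose by 0.72. The part of these markers in the results below was not tested.

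Each cytosolic synthetase charges the transfer RNAs of its own amino acid for use by cytosolic ribosomes, while a separate, nuclear-encoded set serves mitochondria. The GARS1 and KARS1 genes supply both compartments, and EPRS1 encodes a fused enzyme for glutamate and proline. When uncharged transfer RNA accumulates, the kinase GCN2 phosphorylates eIF2 and translation of the transcription factor ATF4 increases. ATF4 with C/EBP partners binds composite elements in the genes of many synthetases, amino acid transporters and amino acid synthesis enzymes. All measured members lay above the median of all gene means in every array.

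Promoter sequence is shown first because 7 of the genes that fell carry the same short element in it. RefSeq promoter windows (GRCh38.p14, 250 bases before to 50 bases after the annotated start) were found for 15 of the 19 measured genes, and LARS1, YARS1, VARS1 and TARS3 had none. The search was for TTNCATCA, the core of the C/EBP-ATF composite element, on both strands, and it includes the stricter TTGCATCA. TTNCATCA stood in a window of 7 of the 15 genes, against 3.22% of the 10749 genes on the arrays that have a window. Counted by window it stood in 7 of the 22 windows of these 15 genes, against 3.62% of all 35116 windows. TTGCATCA stood in 6 of the 15 genes, against 0.884% of genes, and in 6 of the 22 windows, against 0.866% of windows. The cyclic AMP response element TGACGTCA stood in 0 of the 15, against 3.0% of genes. A match is a run of letters, and binding was not measured. The 7 sites are given 5′ to 3′ on the strand of the gene with 11 bases on each side, and capitals mark the element, which in NARS1 is read on the opposite strand.
MARS1 (chr12:57488053-57488082, plus strand): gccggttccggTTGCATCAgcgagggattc
AARS1 (chr16:70289675-70289704, minus strand): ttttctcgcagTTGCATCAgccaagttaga
CARS1 (chr11:3057407-3057436, minus strand): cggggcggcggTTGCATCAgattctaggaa
GARS1 (chr7:30594834-30594863, plus strand): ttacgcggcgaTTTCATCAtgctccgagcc
IARS1 (chr9:92293692-92293721, minus strand): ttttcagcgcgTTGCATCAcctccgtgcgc
TARS1 (chr5:33440956-33440985, plus strand): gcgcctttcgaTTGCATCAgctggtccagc
NARS1 (chr18:57621804-57621833, minus strand): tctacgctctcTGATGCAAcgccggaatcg

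The element of MARS1 ran from 4 bases before the annotated start to base 4 of the transcript, that of CARS1 from 2 bases before it to base 6, and that of TARS1 over bases 3 to 10. In IARS1 it lay 13 to 6 bases before the start, in GARS1 33 to 26 bases before it, and in AARS1 187 to 180 bases before it. In NARS1 it lay at bases 15 to 22 of the transcript. Longer sequence is printed for MARS1, AARS1 and CARS1, which among the 7 genes had the lowest differences, from 250 bases before the start to 30 bases after it.
MARS1 promoter (chr12:57487818-57488097, plus strand): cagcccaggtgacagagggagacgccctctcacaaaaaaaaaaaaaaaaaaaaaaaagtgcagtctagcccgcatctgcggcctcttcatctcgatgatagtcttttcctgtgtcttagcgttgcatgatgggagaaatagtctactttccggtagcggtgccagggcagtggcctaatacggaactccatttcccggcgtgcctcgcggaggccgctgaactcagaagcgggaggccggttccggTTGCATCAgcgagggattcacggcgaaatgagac
AARS1 promoter (chr16:70289477-70289756, minus strand): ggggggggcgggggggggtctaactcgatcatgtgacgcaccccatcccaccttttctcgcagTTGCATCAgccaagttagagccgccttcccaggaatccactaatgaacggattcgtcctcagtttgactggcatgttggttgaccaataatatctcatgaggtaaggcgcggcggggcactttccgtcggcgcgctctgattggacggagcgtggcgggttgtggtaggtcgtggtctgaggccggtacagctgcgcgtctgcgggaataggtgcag
CARS1 promoter (chr11:3057394-3057673, minus strand): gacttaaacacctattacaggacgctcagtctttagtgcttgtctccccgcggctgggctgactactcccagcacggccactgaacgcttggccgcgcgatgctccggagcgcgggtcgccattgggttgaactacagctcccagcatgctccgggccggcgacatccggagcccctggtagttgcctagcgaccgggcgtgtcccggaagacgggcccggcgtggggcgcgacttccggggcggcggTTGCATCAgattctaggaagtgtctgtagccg

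Most of the measured genes of cytosolic synthetases had a lower signal in H2A.X-KO cells. In limma's test, with Benjamini-Hochberg adjustment over all 14884 genes and a threshold of 0.05, 12 of the 17 fell, 1 rose and 4 did not pass. Over all genes, 34.3% passed, 19.0% fell and 15.3% rose, and the median difference was 0.00 against -0.68 for the 17. Falls of at least 2-fold were seen in 6 of the 17, against 1.50% of all genes. All 5 H2A.X-KO arrays lay below all 5 WT arrays in 13 of the 17, against 16.0% of all genes, and above them in 1, against 12.2%.

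**Figure D1:**
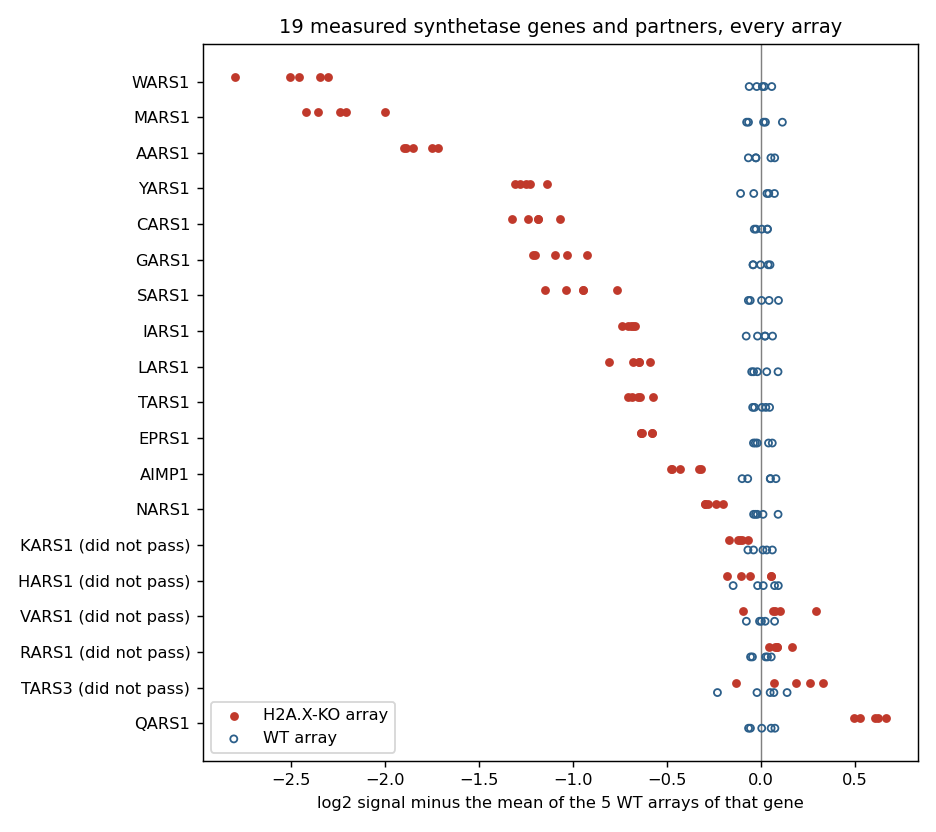
Log2 signal of each array minus the mean of the 5 WT arrays (horizontal axis) for the 19 measured genes, ordered by difference, with filled points for H2A.X-KO arrays and open points for WT arrays. The WT arrays stay near 0, while H2A.X-KO arrays of the 13 genes that fell lie to the left of them and those of QARS1 to the right.

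WARS1, the tryptophan enzyme, whose cytosolic protein is also known as an interferon-induced product, had the lowest difference. Its signal was 5.68, 6.02, 6.13, 5.97 and 6.17 in H2A.X-KO replicates 1 to 5, against 8.49, 8.45, 8.48, 8.53 and 8.41 in WT replicates 1 to 5. The lowest WT array was 2.24 above the highest H2A.X-KO array, and the H2A.X-KO mean was 5.58-fold lower (-2.48 ± 0.08, difference ± SE on the log2 scale, n = 5 each, limma, adjusted p = 4.15e-10). A second, dimmer probe set of WARS1 averaged 4.16 in H2A.X-KO and 5.24 in WT cells, a difference of -1.08 (limma over all probe sets, adjusted p = 6.93e-05), so the size of the fall depended on the probe set. H2A.X-KO replicate 1 was the lowest array for WARS1.

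MARS1 encodes the methionine enzyme, which also charges the initiator transfer RNA. Its signal was 7.53, 7.71, 7.95, 7.74 and 7.59 in H2A.X-KO arrays, against 9.96, 10.06, 9.97, 9.88 and 9.87 in WT arrays. The groups were far apart, with a 4.73-fold lower mean in H2A.X-KO cells (-2.24 ± 0.08, limma, adjusted p = 4.88e-10). In the RefSeq gene order MARS1 overlaps DDIT3, the gene of the stress transcription factor CHOP, which fell by 2.64, so their signals may not be fully separate, and this was not tested. It also overlaps ARHGAP9, which did not pass (-0.06). The other overlaps between a fallen member and its nearest measured gene were YARS1 with S100PBP (0.13, did not pass) and AIMP1 with TBCK, which rose (0.23, limma, adjusted p = 0.0238). AARS1, the alanine enzyme, had 9.23, 9.28, 9.41, 9.38 and 9.24 in H2A.X-KO arrays, against 11.20, 11.18, 11.10, 11.10 and 11.06 in WT arrays. The groups did not overlap, and the H2A.X-KO mean was 3.53-fold lower (-1.82 ± 0.06, limma, adjusted p = 1.98e-10).

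YARS1, CARS1 and GARS1 charge tyrosine, cysteine and glycine. YARS1 was at 7.92, 7.97, 8.06, 7.95 and 7.89 in H2A.X-KO arrays and 9.23, 9.24, 9.16, 9.27 and 9.09 in WT arrays. CARS1 was at 6.61, 6.70, 6.87, 6.75 and 6.75 in H2A.X-KO arrays and 7.90, 7.94, 7.97, 7.91 and 7.97 in WT arrays. GARS1 was at 9.36, 9.19, 9.47, 9.18 and 9.30 in H2A.X-KO arrays and 10.35, 10.44, 10.39, 10.43 and 10.35 in WT arrays. Each was lower in every H2A.X-KO array than in any WT array, with differences of -1.24 ± 0.06, -1.20 ± 0.06 and -1.09 ± 0.06 in that order (limma, adjusted p of 4.31e-09, 6.25e-09 and 4.2e-08). Their H2A.X-KO means were 2.36, 2.30 and 2.13-fold lower.

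SARS1, the serine enzyme, whose product charges selenocysteine transfer RNA with serine as well, had 8.26, 8.35, 8.53, 8.15 and 8.35 in H2A.X-KO arrays, against 9.24, 9.39, 9.34, 9.30 and 9.23 in WT arrays. IARS1, the isoleucine enzyme, had 10.44, 10.37, 10.43, 10.42 and 10.40 in H2A.X-KO arrays, against 11.03, 11.13, 11.13, 11.17 and 11.09 in WT arrays. Neither gene's groups overlapped, and the differences were -0.97 ± 0.07 and -0.70 ± 0.05 (limma, adjusted p of 3.27e-07 and 2.03e-07). The IARS1 arrays of H2A.X-KO cells were close to each other, with an SD of 0.03 (n = 5), against 0.14 for SARS1.

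**Figure D2:**
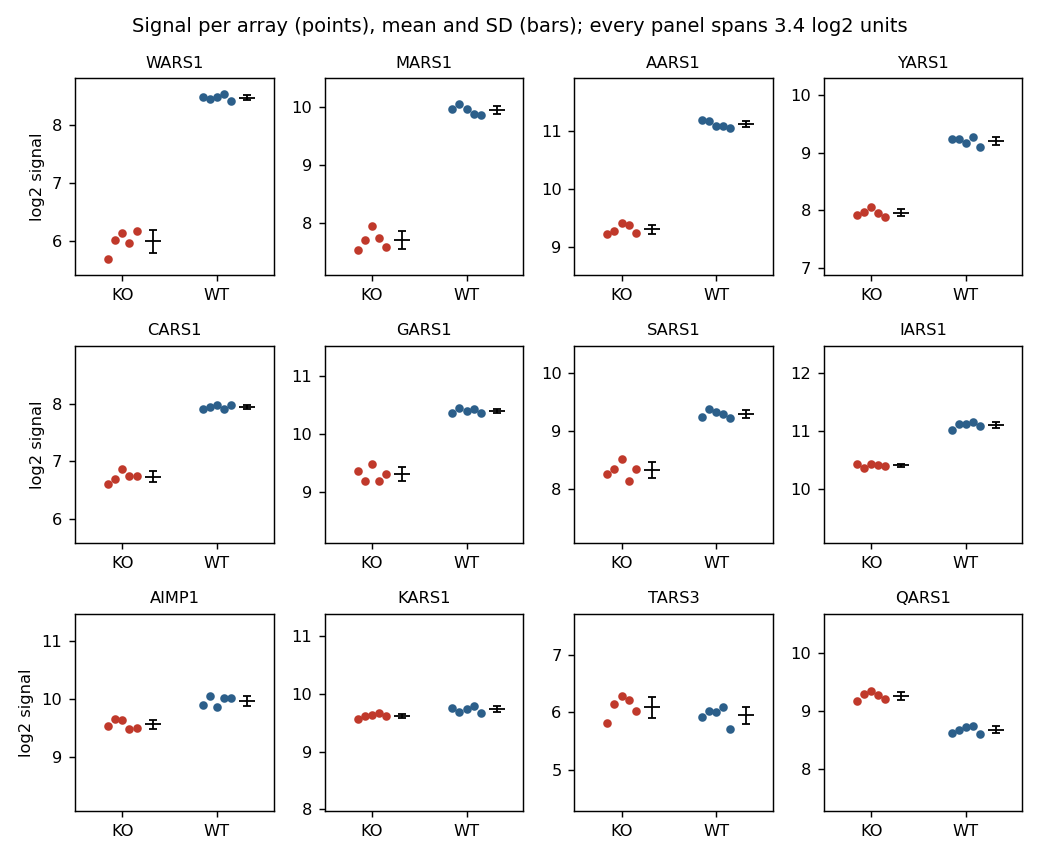
Log2 signal per array (vertical axis) in H2A.X-KO and WT cells for 12 of the measured genes, with bars for the mean and SD of 5 arrays. Each panel spans the same number of log2 units, so the gap between groups can be followed from WARS1 (-2.48) through IARS1 (-0.70) to KARS1 (-0.11) and QARS1 (0.58).

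LARS1, TARS1, EPRS1 and NARS1 made up the smaller falls. LARS1, the leucine enzyme, which is also described as a leucine sensor of the mTORC1 pathway, averaged 9.93 ± 0.08 in H2A.X-KO and 10.60 ± 0.06 in WT cells (SD, n = 5 each). The threonine enzyme gene TARS1 averaged 9.79 ± 0.05 in H2A.X-KO and 10.44 ± 0.04 in WT cells, and EPRS1 averaged 11.00 ± 0.03 in H2A.X-KO and 11.61 ± 0.05 in WT cells. The asparagine enzyme gene NARS1 averaged 10.69 ± 0.05 in H2A.X-KO and 10.95 ± 0.05 in WT cells, the smallest of the 12 falls (-0.26 ± 0.05, limma, adjusted p = 0.00119). In all 4 every H2A.X-KO array lay below every WT array.

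QARS1, the glutamine enzyme, was the 1 member that rose. Its signal was 9.17, 9.30, 9.34, 9.28 and 9.20 in H2A.X-KO arrays, against 8.62, 8.68, 8.73, 8.75 and 8.61 in WT arrays. The groups did not overlap, and the H2A.X-KO mean was 1.50-fold higher (0.58 ± 0.06, limma, adjusted p = 3.59e-06). Glutamine has no mitochondrial synthetase of its own in human cells, where its mitochondrial transfer RNA is first charged with glutamate and then amidated by the GatCAB complex. GATB, a subunit of that complex, was at 6.73, 6.78, 6.85, 7.0 and 6.72 in H2A.X-KO arrays and 6.03, 6.23, 6.18, 6.30 and 6.11 in WT arrays and also rose (0.65 ± 0.07, limma, adjusted p = 1.13e-05), while QRSL1, which encodes another subunit, fell slightly (-0.18, limma, adjusted p = 0.045). That call was lost in 9 of the 10 fits that left out an array in turn (adjusted p of 0.0213 to 0.103).

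The 4 cytosolic enzymes that did not pass were those for lysine, histidine, valine and arginine. KARS1 was at 9.56, 9.61, 9.63, 9.66 and 9.62 in H2A.X-KO arrays and 9.76, 9.69, 9.74, 9.79 and 9.66 in WT arrays, groups that were separated by less than 0.01, with a difference of -0.11 ± 0.05 (limma, adjusted p = 0.102, 95% interval -0.22 to -0.01, unadjusted). The differences were -0.05 for HARS1 (95% interval -0.19 to 0.10), 0.08 for VARS1 (-0.07 to 0.23) and 0.09 for RARS1 (-0.02 to 0.20), and in these 3 genes the groups overlapped. A second probe set of VARS1 gave 0.03. The intervals leave room for small changes in either direction in HARS1, VARS1 and RARS1, but not for changes of the size seen in IARS1. KARS1 and GARS1, the genes that serve both cytosol and mitochondria, thus stood at -0.11 and -1.09. KARS1 passed in 2 alternative fits, with an intensity trend and among brighter genes alone, and RARS1 passed as higher with the trend, at 0.09 (limma, adjusted p = 0.0468).

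AIMP1 and TARS3 are the measured members outside the list of classical cytosolic enzymes. AIMP1 was at 9.54, 9.65, 9.64, 9.49 and 9.50 in H2A.X-KO arrays and 9.90, 10.05, 9.87, 10.02 and 10.02 in WT arrays. The groups did not overlap, and AIMP1 fell (-0.41 ± 0.06, limma, adjusted p = 0.000123). TARS3, a paralogue of TARS1, was at 5.82, 6.14, 6.28, 6.21 and 6.02 in H2A.X-KO arrays and 5.93, 6.02, 6.0, 6.09 and 5.72 in WT arrays. Those groups overlapped and TARS3 did not pass, with a difference of 0.14 ± 0.09 (limma, adjusted p = 0.296, 95% interval -0.06 to 0.35), beside -0.65 ± 0.05 for TARS1.

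Synthetases fall into structural classes I and II, which differ in the fold of the catalytic domain. Of 9 measured class I enzymes, 6 fell and 1 rose, with a median of -0.70. Of 7 class II enzymes, 5 fell and 0 rose, with a median of -0.65. EPRS1 holds a catalytic domain of each class and was counted in neither. Both classes thus held falls, and the difference between them was not tested. Over all genes 19.0% fell and 15.3% rose.

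Some cytosolic synthetases assemble with AIMP1 into the multi-synthetase complex. Its 8 measured parts (EPRS1, IARS1, KARS1, LARS1, MARS1, QARS1, RARS1 and AIMP1) had 5 falls and 1 rise, with a median of -0.51. Without AIMP1, a setting added after seeing the data, 4 of the 7 enzymes fell and the median was -0.62. The 10 cytosolic enzymes outside the complex had 8 falls and 0 rises, with a median of -1.03. Falls of at least 2-fold numbered 1 in the complex, MARS1, and 5 outside it, namely WARS1, AARS1, YARS1, CARS1 and GARS1. The difference between the complex and the enzymes outside it was not tested. Over all genes 19.0% fell, 15.3% rose and 1.50% fell at least 2-fold.

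All 7 genes with the composite element core in their promoter window were among the genes that fell. Of the 11 fallen genes with a window, 7 held TTNCATCA, and of the 4 others with a window (KARS1, HARS1, RARS1 and QARS1) 0 held it. With only 4 others this comparison is small, and a link between the core and the falls was not tested. WARS1, SARS1, EPRS1 and AIMP1 fell without these letters in their windows. The differences of the genes with the core ran from -2.24 in MARS1 to -0.26 in NARS1.

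**Figure D3:**
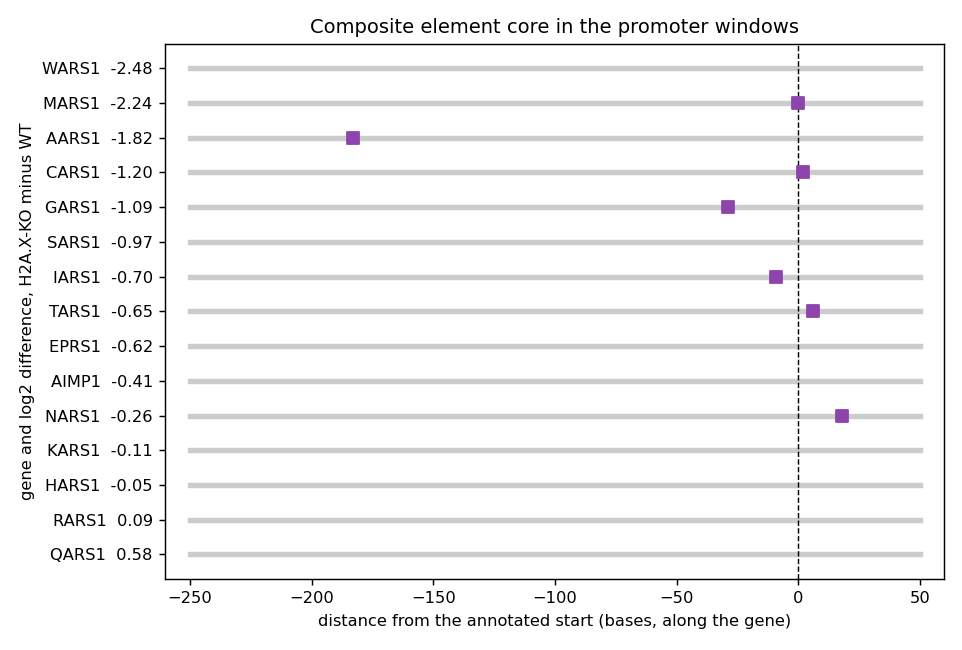
Position of the composite element core (squares, distance of its centre from the annotated start in bases) in the promoter windows of the 15 genes that have one, ordered by log2 difference, H2A.X-KO minus WT. Grey lines are the windows, with the windows of a gene that has several drawn on the same line, and 5 of the 7 squares lie within 20 bases of the start.

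The members lie on 13 chromosomes. The 13 members that fell had 26 nearest measured genes on their 2 sides, of which 6 fell (23.1%), 6 rose (23.1%) and 14 did not pass, with a median difference of 0.02. Over all genes 19.0% fell and 15.3% rose, so these shares were near those of the array as a whole. Besides DDIT3, the neighbours included PLAC8L1 beside LARS1 (-0.95) and NPR3 beside TARS1 (0.81), which were picked for their size after their values were seen.

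The other known genes of the amino acid response showed falls too. Of 19 measured members without synthetases, of 37 listed, 17 fell (89.5%), 1 rose (5.3%) and 1 did not pass, with a median of -1.32. Over all genes 19.0% fell and 15.3% rose. ATF4 itself was at 9.96, 9.81, 9.89, 9.78 and 9.79 in H2A.X-KO arrays, against 10.50, 10.40, 10.42, 10.46 and 10.42 in WT arrays. Its groups did not overlap (-0.60 ± 0.05, limma, adjusted p = 1.91e-06). ASNS, which makes asparagine, the substrate of NARS1, was at 6.12, 6.43, 6.49, 6.44 and 6.43 in H2A.X-KO arrays, against 8.38, 8.35, 8.24, 8.39 and 8.23 in WT arrays, and fell by 1.94. DDIT3, the pseudokinase gene TRIB3 and the hormone gene STC2 also fell, with differences of -2.64, -2.35 and -2.07. The gene that rose was ATF5 (0.21, limma, adjusted p = 0.0453), a call lost in 7 of the 10 fits that left out an array in turn, and the gene that did not pass was CTH (-0.15), both named after their values were seen. The list and the synthetases were chosen with falls in these data already known, so their counts are not independent evidence of a direction.

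Averaged over the 17 cytosolic synthetases, the H2A.X-KO arrays stood at -0.82 to -0.71 relative to the WT mean and the WT arrays at -0.04 to 0.04. The same average over the 19 amino acid response genes was -1.25 to -1.14 in H2A.X-KO arrays and -0.03 to 0.03 in WT arrays. H2A.X-KO replicate 3 held the highest H2A.X-KO value in 7 of the 12 synthetases that fell, and in 28.4% of all genes that fell. H2A.X-KO replicate 1, which stood apart on the second component, held the lowest in 4 of the 12 and the highest in 4, against 39.6% and 13.2% of all genes that fell.

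The eIF2 kinases and their partners, which sense stress upstream of ATF4, moved in both directions. Of 6 measured genes, of 16 listed, 3 fell, 2 rose and 1 did not pass, with a median of -0.15. Both shares were above those of all genes, of which 19.0% fell and 15.3% rose, but they rest on 6 genes. EIF2AK3, the kinase PERK of the endoplasmic reticulum, fell by 0.81, IMPACT, an inhibitor of GCN2 activation, fell by 0.36, and EIF2AK2, the RNA-activated kinase PKR, fell by 0.25. EIF2AK4, which encodes GCN2, and its activator GCN1 rose by 0.19 and 0.22 (limma, adjusted p of 0.0129 and 0.00827), while EIF2AK1 was at -0.04 and did not pass.

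Genes of other steps of transfer RNA use had list medians near 0 or slightly below it, and the difference from the synthetases was not tested. Of 40 measured genes of transfer RNA processing, modification and export, of 55 listed, 12 fell and 12 rose, with a median of -0.02. Both shares were above those of all genes, of which 19.0% fell and 15.3% rose. TSEN15, a subunit of the splicing endonuclease, fell by 1.49 and the methyltransferase gene TRMT10A by 0.74, while THG1L, which adds the guanosine at the end of histidine transfer RNA, rose by 0.75 and QTRT1, a subunit of the queuine transferase, by 0.64. For RNA polymerase III, which transcribes transfer RNA genes, 8 of 22 listed genes were measured. Of these 8, 4 fell and 1 rose, with a median of -0.18. The share that fell was above that of all genes, and the share that rose was slightly below it. POLR3G fell by 0.82, MAF1, a repressor of the polymerase, fell by 0.49, POLR3C fell by 0.23 and GTF3A by 0.16, and CRCP rose by 0.41. The GTF3A call was lost in 7 of the 10 fits that left out an array in turn.

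Elongation and termination factors use the charged transfer RNAs or release the finished chain, and 10 of 14 listed genes were measured. Of these 10, 3 fell and 2 rose, with a median of 0.03. Both shares were above the 19.0% of all genes that fell and the 15.3% that rose. EIF5A2 fell by 1.09, EEF1A2 fell by 0.47 and GSPT1 by 0.17, while EEF1G and EEF2 rose by 0.25 and 0.22. Further charging factors, such as the amidotransferase subunits and the deacylases, were measured for 9 of 16 listed genes. Of these 9, 2 fell (22.2%) and 2 rose (22.2%), against 19.0% and 15.3% of all genes, with a median of -0.08. DTD1 (-0.37) and QRSL1 fell, and GATB and PTRHD1 (0.27) rose. EEF1E1 and XPOT were not analysed here.

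Mitochondrial translation, for which the mitochondrial synthetases supply the charged transfer RNAs, was represented by 86 genes, mainly of the mitochondrial ribosome. Of these 26 fell (30.2%), 25 rose (29.1%) and 35 did not pass, so more of the list passed in either direction than of all genes, of which 19.0% fell and 15.3% rose. The list had a median of 0.02, against 12 falls, 1 rise and a median of -0.68 in the 17 cytosolic synthetases. The ribosomal protein genes MRPL2, MRPS10 and MRPL49 fell by 0.96, 0.96 and 0.83, and MRPL27 rose by 0.95. No gene of the list fell at least 2-fold, against 1.50% of all genes. These values describe the ribosome, its factors and some charging genes, and do not stand for the mitochondrial synthetases. GATB and QRSL1, for example, are also counted among the further charging factors.

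**Figure D4:**
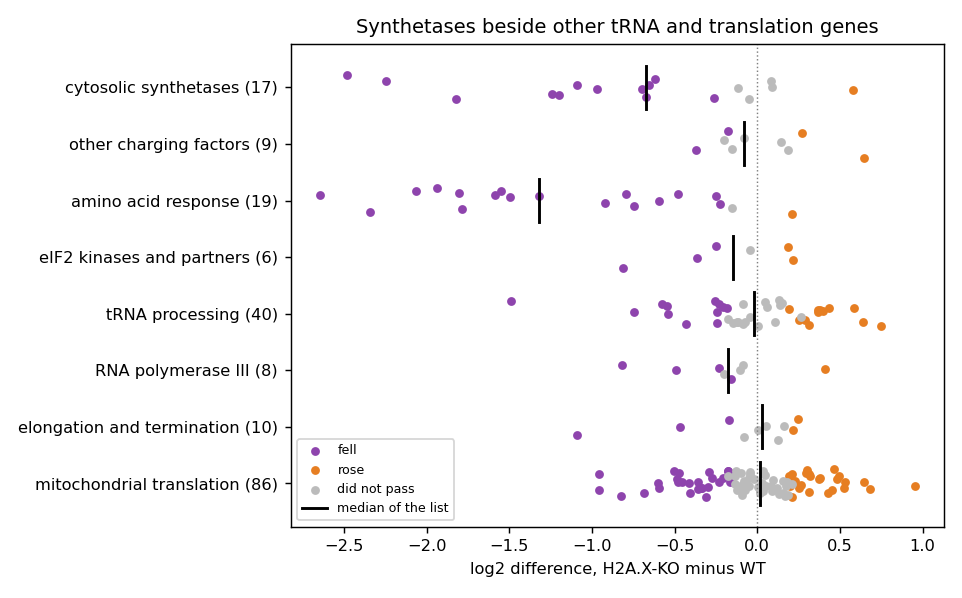
Log2 difference, H2A.X-KO minus WT (horizontal axis), of each measured gene in 8 lists, with the number of genes in brackets, colours for genes that fell, rose or did not pass, and bars for the list medians. Genes shared between lists are drawn in each of them. The bars of the cytosolic synthetases (-0.68) and the amino acid response genes (-1.32) lie to the left of the others, which run from -0.18 to 0.03.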

How the data were processed

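RNA of 10 MCF10A samples was measured on Affymetrix arrays, with labelled RNA made from 1 µg of total RNA per the labels' protocols. The authors deposited summarised and normalised log2 signals, a value per probe set and array. Affymetrix Expression Console and Partek 6.6 are named in the submitters' processing notes, and the summarisation method and filters were not stated there. Array medians nearly coincide, so a shift shared by every transcript would not show. The log2 scale was read from the range, 1.13 to 13.87. The number of arrays limits the precision, with a median SE of 0.08.

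Of 53617 probe sets, 16098 had 1 gene symbol in the platform annotation, 0 had several and 37519 had none. Symbols were updated by Entrez identifier through RefSeq (GRCh38.p14), and all 16098 matched. The probe set with the highest mean stood for each gene. Differences, H2A.X-KO minus WT, were tested in limma 3.58.1 (lmFit, eBayes, R 4.3.3), with no covariate or filter and Benjamini-Hochberg adjustment over 14884 genes. Lists were described by counts and medians, without list tests. The fit was tested on simulated data, where it recovered the larger changes and missed some of the smaller ones. Python 3.11.15 with pandas 2.3.3 and matplotlib 3.10.9 made counts, motif searches and plots. A shorter cyclic AMP half-element and the CCAAT box were also searched and are not reported.

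The members and lists were chosen with earlier results of these data known. Every array is given for the 8 cytosolic members with the largest absolute differences and for AIMP1 and TARS3. Of the other lists, up to 4 members per list that passed without overlap of the groups are named by absolute difference, and ATF4, DDIT3, ASNS, TRIB3, EEF1E1 and XPOT whatever their values. The array values of QARS1, KARS1 and GATB and the further genes of short counts were added after their values were seen. Alternatives were quantile normalisation, centring, a filter on dim genes, an intensity trend, the mean of probe sets, array weights, a replicate block and leaving out each array.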

Additional observations from a re-analysis of the deposited data

Results flagged for a closer look

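No measured synthetase or partner had an array far from the others of its group by Dixon's test. Among the other named genes, 8 of 72 groups of 5 arrays had such an array, and chance alone flags about 1 group in 20. H2A.X-KO replicate 1 was lowest for ASNS at 6.12 (others 6.43 to 6.49), for QTRT1 at 7.51 (7.70 to 7.76) and for SFN at 10.44 (10.66 to 10.73). H2A.X-KO replicate 2 was highest for EEF1A2 at 7.10 (6.87 to 6.91) and H2A.X-KO replicate 4 for EEF2 at 12.90 (12.86 to 12.87). WT replicate 5 was lowest for EIF2AK3 at 7.33 (7.58 to 7.61), WT replicate 4 was highest for THG1L at 8.54 (8.40 to 8.43), and WT replicate 3 for SFN at 10.33 (10.21 to 10.25).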

How the results depend on the processing

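All 12 falls among cytosolic synthetases and the direction and call of 17 of the 19 members held in all 17 alternative fits, the exceptions being KARS1, which passed as lower with an intensity trend and among brighter genes (adjusted p of 0.0173 and 0.0385, limma), and RARS1, which passed as higher with the trend. There were thus 13 falls in both fits, and 2 rises with the trend. WARS1 ran from -2.52 to -1.78, the last with its probe sets averaged. With an array left out, the median of the 17 ran from -0.70 to -0.64. Without GARS1 and KARS1 there were 11 falls. The median of all genes was -0.01 under quantile normalisation, -0.03 among brighter genes and -0.01 to 0.01 with an array left out. The 9 further charging factors had 1 fall under quantile normalisation, centring, array weights and the replicate block, 4 among brighter genes and with the trend, and with an array left out 1 to 2 falls and 1 to 3 rises. The ATF5 rise was lost, leaving 0, with the replicate block, and 0 or 1 rises remained with an array left out. The amino acid response median was -1.12 among brighter genes, and that of the eIF2 list was -0.09 under quantile normalisation. The mitochondrial translation median ran from -0.01 to 0.03 with an array left out. Where a cause is not given by the construction, the cause was not tested. The deviations of same-numbered samples correlated at 0.199 for replicate 1, whose best match was WT replicate 1, and at -0.014 to 0.049 for replicates 2 to 5, none of which matched its own number best, so the numbers were not taken as a pairing. With the replicate block 2771 genes fell and 2201 rose. No cytosolic against mitochondrial difference could be computed under any setting.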
